A study of Mus musculus with 24 samples.

Results

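Genes of the erythroid membrane and its skeleton were followed in splenic dendritic cells (DCs) of mouse pups whose mothers were asthmatic or healthy. The 8 genes were chosen by name, with earlier results of these data known: Slc4a1, Ank1, Sptb, Epb41, Epb42, Dmtn, Ermap and Rhag. Of these, 7 had a probe set that carried their symbol alone, out of 12393 such genes on the array, and they were read by 12 probe sets. Epb41 had none and was not analysed here.

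RNA of BALB/c pups was measured at day 14 of life on 24 Affymetrix Mouse430A 2.0 arrays. At-risk pups were born to mothers that had been sensitized and challenged with ovalbumin (OVA), and normal pups to control mothers. Stimulated pups had received a single intraperitoneal dose of 5 µg of OVA with 1 mg of alum, on day 3 by the labels and on day 4 by the methods, while naïve pups had not. Cells were taken with CD11c beads, and by the methods more than 95% carried both CD11c and MHC-II. Set 1 held 4 stimulated at-risk, 4 stimulated normal, 4 naïve at-risk and 3 naïve normal arrays. Set 2, whose RNA was amplified with a NuGEN kit, held 5 stimulated at-risk and 4 stimulated normal arrays. The sets were preprocessed separately, so differences were taken within a set. The sources used here do not give the number of pups behind an array, and p-values measure the spread between arrays. Signals are given as log2 of the deposited intensity, and array medians ran from 8.09 to 8.22.

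The red cell membrane rests on a meshwork of spectrin and short actin filaments. Slc4a1 encodes band 3, the anion exchanger that is the main membrane protein, and ankyrin (Ank1) ties it to beta-spectrin (Sptb). Epb42 encodes a transglutaminase-like protein without enzyme activity that strengthens the tie between band 3 and ankyrin. Dematin (Dmtn) bundles actin, and the product of Epb41 holds spectrin and actin together. Rhag encodes the glycoprotein that carries the Rh complex to the surface, and Ermap encodes an immunoglobulin-superfamily protein of erythroid cells that bears the Scianna blood group in humans. Inherited defects of several of these genes cause spherocytosis or related hemolytic anemias. The spleen of a young mouse makes red cells, so erythroid precursors are a normal part of the organ.

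Promoters are shown for the 4 measured genes with a start in the RefSeq table given for build GRCm38.p6. Slc4a1, Ank1 and Dmtn had no entry. Each sequence runs from 250 bases before to 50 bases after the annotated start on the strand of the gene. Capitals mark matches to 4 GATA motifs (AGATAA or its variant AGATAG and TGATAA or its variant TGATAG, bound by Gata factors) and to CACCC (bound by Klf factors), searched on both strands. A match on the opposite strand appears as its reverse complement, such as TTATCA for TGATAA.
Sptb, chr12:76710498-76710797, minus strand: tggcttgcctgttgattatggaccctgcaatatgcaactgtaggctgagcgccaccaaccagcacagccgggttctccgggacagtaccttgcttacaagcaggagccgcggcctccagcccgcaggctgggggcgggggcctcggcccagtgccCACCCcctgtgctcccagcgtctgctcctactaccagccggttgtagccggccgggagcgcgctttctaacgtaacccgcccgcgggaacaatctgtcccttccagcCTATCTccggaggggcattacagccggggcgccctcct
Epb42, chr2:121036828-121037127, minus strand: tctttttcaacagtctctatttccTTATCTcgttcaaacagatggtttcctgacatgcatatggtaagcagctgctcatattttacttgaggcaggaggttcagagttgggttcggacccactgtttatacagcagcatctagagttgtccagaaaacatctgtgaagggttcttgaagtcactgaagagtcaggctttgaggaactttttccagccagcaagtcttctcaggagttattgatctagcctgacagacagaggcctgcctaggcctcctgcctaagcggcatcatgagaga
Ermap, chr4:119189946-119190245, minus strand: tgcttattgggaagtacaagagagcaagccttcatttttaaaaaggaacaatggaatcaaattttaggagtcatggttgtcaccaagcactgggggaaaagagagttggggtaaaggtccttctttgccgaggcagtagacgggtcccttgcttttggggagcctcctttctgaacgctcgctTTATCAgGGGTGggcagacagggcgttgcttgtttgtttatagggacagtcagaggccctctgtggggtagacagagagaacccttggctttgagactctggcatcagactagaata
Rhag, chr17:40810899-40811198, plus strand: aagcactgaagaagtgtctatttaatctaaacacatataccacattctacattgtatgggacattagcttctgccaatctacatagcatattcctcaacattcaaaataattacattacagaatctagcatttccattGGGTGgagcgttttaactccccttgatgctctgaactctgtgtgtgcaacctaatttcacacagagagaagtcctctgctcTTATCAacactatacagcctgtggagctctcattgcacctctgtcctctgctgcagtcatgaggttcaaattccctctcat
Each of the 4 promoters held 1 GATA match, all on the opposite strand. The match began 67 bases before the start in Ermap, 31 before it in Rhag, 226 before it in Epb42 and at base 13 after it in Sptb. CACCC was present once in Sptb, Ermap and Rhag and was not found in this window of Epb42. The promoters listed for Epb41, which was not measured and is not shown, held 1, 1 and 0 GATA matches and no CACCC. Matches did not overlap one another. Over 32851 promoters of the same length, 29.8% held a GATA match, 57.5% held CACCC and 14.9% held both. These are matches of letters and were not tested as binding sites.

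Markers of the labelled cell type were read first. The mean log2 signal of 16 measured DC markers lay between 12.14 and 12.46 (the range over all 24 arrays). This does not measure purity, and on the same arrays the mean of 14 red pulp macrophage markers lay between 11.09 and 11.99. AF123 and AF79 stood apart for the erythroid genes. AF123, a stimulated at-risk array of Set 2, was the highest of its group in 10 of the 12 probe sets, and AF79, a naïve normal array, was high for Ermap and for 1 probe set of Ank1. AF123 and AF79 also had the lowest DC marker means of their groups (12.14 and 12.18), and the lowest macrophage means (11.30 and 11.61). AF84 and AF89 of Set 1, highest of their groups in the mean of the 7 genes, were lowest in DC markers (12.38 and 12.35). Their macrophage means were the highest there. In naïve at-risk DCs and in stimulated normal DCs of Set 2, the array highest for the genes was not the lowest for DC markers. Any link was not tested. Values that AF123 and AF79 moved most are also given without them.

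The allergen comparison sets stimulated against naïve DCs in each kind of pup. No group was labelled as given alum alone or a sham injection. Effects of OVA, of alum and of the injection itself therefore cannot be told apart, and "with allergen" below stands for all of them. All 7 measured genes were higher in stimulated than in naïve DCs, whether pups were at-risk or normal. Ermap and Rhag had the largest differences in at-risk pups, at 5.11-fold and 5.04-fold, and Slc4a1 had the smallest of the genes by its brightest probe set, at 2.21-fold. Of the 12 probe sets, 11 were called higher in at-risk pups and 10 in normal pups, and none was called lower. A call required that limma's p, adjusted by Benjamini-Hochberg over all 22626 probe sets, was at most 0.05 and that one group was at least 25% above the other. Over all probe sets, 4.42% were called higher in at-risk pups and 5.73% in normal pups. Stimulated and naïve arrays did not overlap for 11 of the 12 in at-risk pups, where 8.89% of all probe sets were higher without overlap. They did not overlap for 10 of 12 in normal pups, against 11.6% of all. The median log2 fold change of the 12 was 1.57 in at-risk and 1.19 in normal pups, beside -0.01 and 0.00 over all probe sets. In whole-population RNA of this kind, fewer cells of a type and less RNA per cell cannot be told apart, and the same holds for more.

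**Figure D1:**
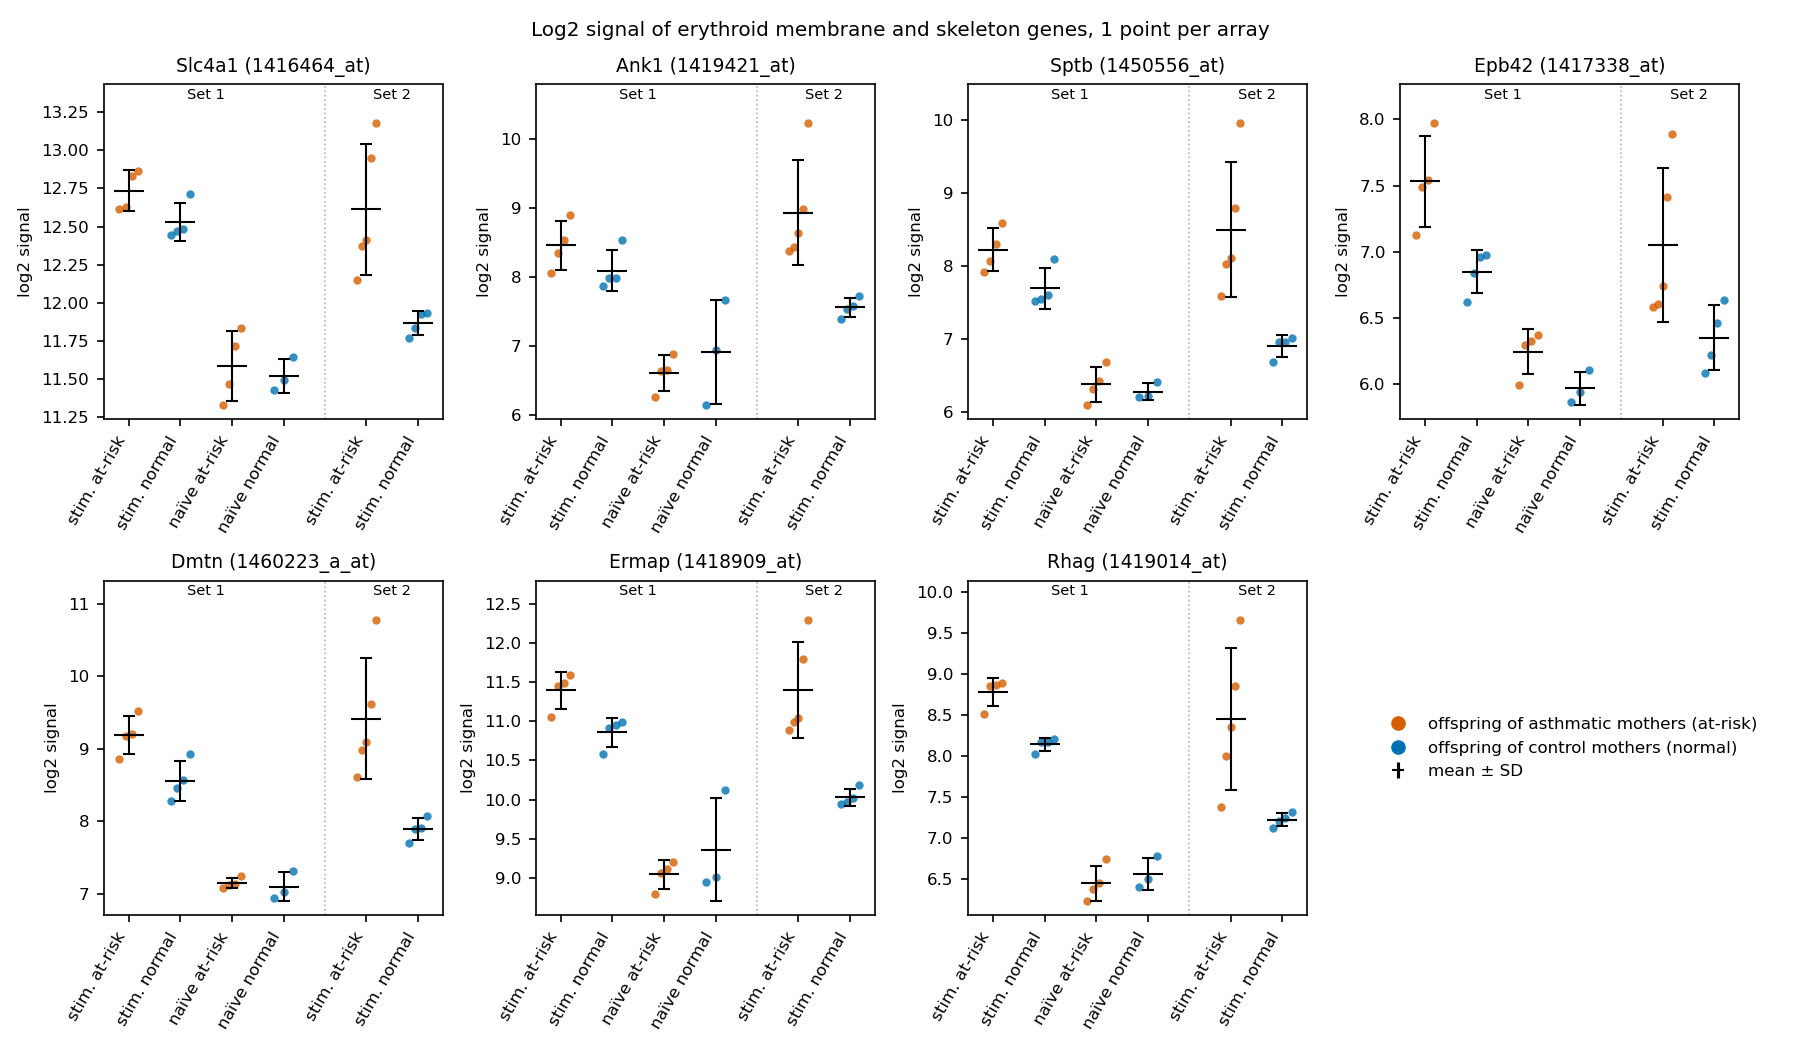
Log2 signal of the 7 measured genes, each by its probe set with the highest mean, on every array (points), with group means and SDs (bars). The columns are stimulated at-risk, stimulated normal, naïve at-risk and naïve normal DCs of Set 1, then stimulated at-risk and stimulated normal DCs of Set 2. The naïve arrays are lowest in Set 1 for each gene, and the at-risk arrays of Set 2 spread over the widest range.

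Among the surface proteins, Slc4a1 was read by 3 probe sets. By the brightest, its log2 signal was 12.83, 12.87, 12.61 and 12.63 in stimulated at-risk DCs of Set 1 (AF88 to AF91), against 11.47, 11.33, 11.72 and 11.84 in naïve at-risk DCs (AF80 to AF83). In normal pups it was 12.72, 12.49, 12.44 and 12.47 in stimulated DCs (AF84 to AF87) and 11.65, 11.49 and 11.43 in naïve DCs (AF76, AF77 and AF79). Every stimulated array was above every naïve array, and the naïve groups overlapped. The log2 fold change of stimulated over naïve was 1.15 ± 0.11 (SE) in at-risk pups (adjusted p = 5.78e-06) and 1.01 ± 0.12 in normal pups (adjusted p = 3.90e-05). A probe set of the gene whose probes may cross-hybridise gave 1.17 and 0.97. The third was dim, not far above the lower quartile of the arrays (4.99 to 5.09), with group means from 5.66 to 5.80, and it was called in no comparison.

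Rhag, the Rh-associated glycoprotein, had 8.85, 8.88, 8.52 and 8.87 in stimulated at-risk DCs of Set 1, against 6.37, 6.23, 6.45 and 6.74 in naïve at-risk DCs. Its values were 8.21, 8.17, 8.03 and 8.17 in stimulated normal DCs and 6.49, 6.40 and 6.77 in naïve normal DCs. The 4 stimulated normal arrays lay within a narrow band, wholly below the 4 stimulated at-risk arrays and wholly above the naïve ones. The differences from naïve DCs were 2.33 ± 0.11 in at-risk pups (adjusted p = 1.31e-08) and 1.59 ± 0.12 in normal pups (adjusted p = 1.11e-06) on the log2 scale.

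Ermap had log2 signals of 11.49, 11.59, 11.05 and 11.45 in stimulated at-risk DCs, against 9.21, 8.79, 9.12 and 9.06 in naïve at-risk DCs. In normal pups the values were 10.95, 10.99, 10.59 and 10.91 in stimulated and 8.95, 9.01 and 10.12 in naïve DCs. The naïve normal array at 10.12 was AF79, above the other naïve arrays but still below each stimulated one. Ermap was 5.11-fold higher in stimulated DCs of at-risk pups (95% interval 1.90 to 2.80 on the log2 scale, adjusted p = 3.71e-06) and 2.83-fold higher in those of normal pups (1.02 to 1.98, adjusted p = 4.11e-04). Without AF79 the log2 fold change in normal pups was 1.88 (adjusted p = 6.04e-06).

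Of the anchor proteins, Ank1 had 2 probe sets of middle brightness and a dim one. By the brighter of the 2 its log2 signal was 8.53, 8.91, 8.06 and 8.35 in stimulated at-risk DCs, against 6.65, 6.26, 6.64 and 6.89 in naïve at-risk DCs. Normal pups had 8.54, 7.99, 7.87 and 7.98 in stimulated and 6.94, 6.15 and 7.66 in naïve DCs, with AF79 again the high one. The naïve normal arrays spread widely but stayed below the stimulated ones. The log2 fold change was 1.85 ± 0.26 in at-risk pups (adjusted p = 2.78e-04) and 1.17 ± 0.29 in normal pups (adjusted p = 0.0124), where it was 1.55 without AF79 (adjusted p = 0.00125). The second probe set gave 1.64 ± 0.20 in at-risk and 1.49 ± 0.21 in normal pups, both called. The dim one was called in at-risk pups alone (0.48 ± 0.10, adjusted p = 0.00474), and in normal pups it gave 0.18 ± 0.11 (adjusted p = 0.282). The difference between these effects was not called (0.30 ± 0.14, adjusted p = 0.61).

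Epb42 had 2 probe sets, and by the brighter it had 7.97, 7.49, 7.13 and 7.54 in stimulated at-risk DCs, against 6.25 ± 0.17 in naïve at-risk DCs (SD, n = 4), where AF83 was lowest. It had 6.84, 6.96, 6.62 and 6.98 in stimulated normal DCs and 6.11, 5.86 and 5.94 in naïve normal DCs. All 4 at-risk stimulated arrays were above the highest stimulated normal array. Stimulated DCs differed from naïve ones by 1.29 ± 0.14 in at-risk and 0.88 ± 0.16 in normal pups (adjusted p = 3.31e-05 and 0.00145). By the second probe set Epb42 was 2.83-fold higher in at-risk pups (95% interval 1.16 to 1.85 on the log2 scale) and 2.3-fold higher in normal pups (0.83 to 1.57).

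In the skeleton itself, Sptb had 8.31, 8.59, 7.93 and 8.07 in stimulated at-risk DCs, against 6.32, 6.10, 6.42 and 6.69 in naïve at-risk DCs. In normal pups Sptb had 8.10, 7.60, 7.53 and 7.55 in stimulated and 6.41, 6.21 and 6.22 in naïve DCs. The lowest stimulated array, AF86, was still above the highest naïve array. Beta-spectrin transcripts thus differed by 3.58-fold in at-risk pups (adjusted p = 2.70e-06) and 2.67-fold in normal pups (adjusted p = 6.23e-05).

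Dmtn had 9.21, 9.51, 8.86 and 9.17 in stimulated at-risk DCs, against 7.13, 7.08, 7.14 and 7.24 in naïve at-risk DCs. Its signals were 8.92, 8.56, 8.27 and 8.46 in stimulated normal DCs and 7.03, 6.94 and 7.32 in naïve normal DCs. The naïve at-risk arrays were close together, and no naïve array reached a stimulated one. Dmtn was 4.12-fold higher in stimulated DCs of at-risk pups (adjusted p = 3.32e-07) and 2.75-fold higher in those of normal pups (adjusted p = 1.68e-05).

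**Figure D2:**
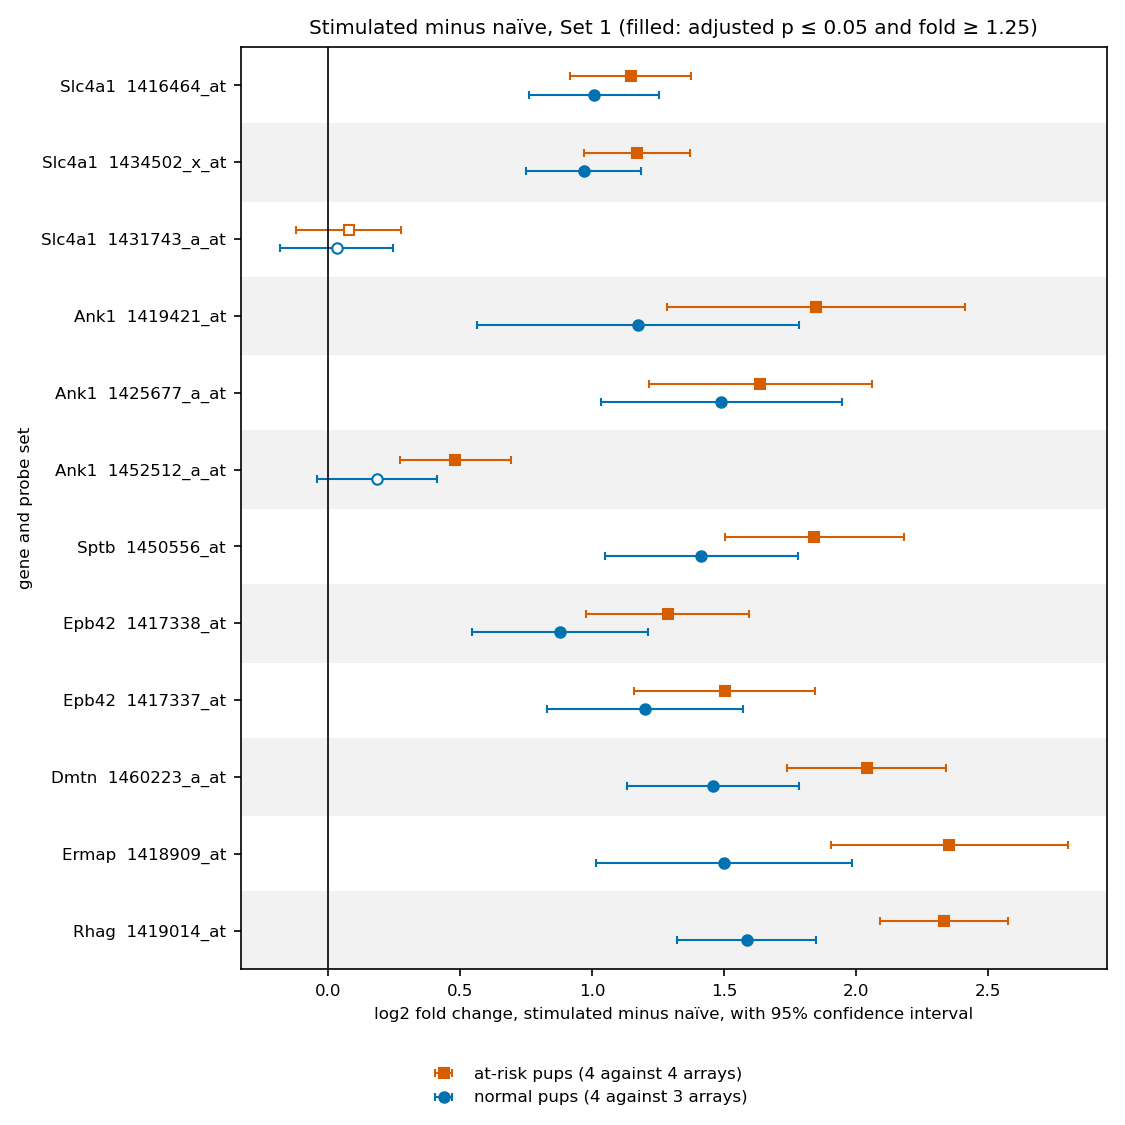
Log2 fold change of stimulated over naïve DCs in Set 1 with 95% confidence intervals, for the 12 probe sets (rows), in at-risk pups (squares) and normal pups (circles), filled where called. The squares lie to the right of the circles in every row, and no interaction was called.

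In each of the 12 probe sets the allergen difference was larger in at-risk than in normal pups. The test of that difference, which is also the test of whether the maternal effect differed between stimulated and naïve DCs, called 0 of the 12 in limma, with 3 at an unadjusted p under 0.05. Of all probe sets 0.0486% were called in either direction. The lowest adjusted p of the members was that of Rhag, 0.75 ± 0.17 (adjusted p = 0.149, 95% interval 0.39 to 1.10). Ermap had 0.85 ± 0.31 (0.456 after adjustment) and Dmtn 0.58 ± 0.21 (0.443), while Slc4a1 had 0.14 ± 0.16, with an interval of -0.20 to 0.48. Without AF79 the difference was 0.47 for Ermap, 0.30 for Ank1 by its brightest probe set (against 0.67 with all arrays), 0.64 for Rhag and 0.47 for Dmtn, and none of the 12 was called. The allergen and maternal comparisons of Set 1 share arrays, so their values do not support one another.

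The naïve comparison asks whether maternal status alone marked these genes. None of the 12 probe sets was called by limma in naïve at-risk against naïve normal DCs, and 0 had an unadjusted p under 0.05. Of all probe sets, 0.34% were called in either direction. At-risk and normal arrays overlapped for all 12, where 5.74% of all probe sets were higher without overlap. Log2 fold changes ran from -0.32 (Ermap, 95% interval -0.80 to 0.17) to 0.34 (Ank1 by its second probe set, -0.11 to 0.80). The negative values of Ermap and of Ank1 by its brightest probe set (-0.31) rested on AF79. Without that array they were 0.06 and 0.06. Rhag had -0.11 (-0.37 to 0.15) and Dmtn 0.05 (-0.27 to 0.38), so a difference of a log2 unit in either direction lies outside these intervals.

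The stimulated comparison asks how DCs of at-risk and normal pups differed after the same allergen dose. Over both sets, with set as a term, 6 of the 12 probe sets were called higher in at-risk DCs, those of Dmtn, Sptb, Ermap and Rhag, 1 of the 2 of Epb42 and 1 of the 3 of Ank1, and 0 were called lower. Of all probe sets 1.31% were called higher. All 12 log2 fold changes were above 0, with a median of 0.81 beside -0.01 over all probe sets. The lowest, of the dim probe set of Slc4a1, was 0.003 (95% interval -0.28 to 0.28) and shows no direction. Dmtn, the actin bundler, was 2.15-fold higher (1.10 ± 0.24 on the log2 scale, adjusted p = 0.0241), and Sptb was 2.13-fold higher (1.09 ± 0.27, adjusted p = 0.0413). Ermap differed by 0.98 ± 0.19 (adjusted p = 0.0137), Rhag by 0.95 ± 0.22 (0.0327) and Epb42 by 0.69 ± 0.17 (0.0386). The second probe set of Epb42 was not called (0.73 ± 0.22, adjusted p = 0.0861). Ank1 was called by its second probe set (0.96 ± 0.24, adjusted p = 0.0487) and missed the threshold by its brightest (0.90 ± 0.24, 0.057). Slc4a1 was not called by any of its probe sets, with 0.49 ± 0.13 (adjusted p = 0.0556) by the brightest. When a difference beyond 25% was itself tested, 0 of the 12 were called, and 0 of all probe sets.

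The number of calls changed when an array was left out, while the log2 fold changes moved less. Sptb stayed between 0.88 and 1.19 and lost its call without any of 12 of the 17 arrays. Dmtn stayed between 0.91 and 1.19. Ermap kept its call without any one of the 17 arrays, with an adjusted p of at most 0.0426. Without AF118, AF119, AF120 or AF121, the stimulated normal arrays of Set 2, Ermap was the only one of the 12 called. Without AF88 or AF89 the count was 2, and without AF85, AF86, AF87, AF125 or AF126 it was 3. Leaving out AF123, the highest array, gave 8 calls, with a log2 fold change of 0.91 for Dmtn and 0.84 for Ermap, while Epb42 lost its call (0.64, adjusted p = 0.0515). Signs did not change for the probe sets called.

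Within Set 1 alone, 0 of the 12 were called by limma, while 8 had an unadjusted p under 0.05 and 0.0707% of all probe sets were called in either direction. All 12 log2 fold changes were above 0, with a median of 0.43. Rhag had 0.64 ± 0.11 (adjusted p = 0.0628), Epb42 0.68 ± 0.14 (0.114) and Dmtn 0.63 ± 0.14 (0.149). At-risk arrays were wholly above normal arrays for 3 of the 12, those of Rhag, Ermap and Epb42 by its brighter probe set, where 2.76% of all probe sets were higher without overlap. AF90 was the lowest at-risk array in the mean of the 7 genes, and without it Rhag, Epb42 and Dmtn were called. The count was 1 without AF79 or AF83, in both cases Rhag.

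Within Set 2 the differences were larger and the at-risk arrays more scattered. Dmtn had 10.78, 8.62, 9.61, 9.09 and 8.99 in stimulated at-risk DCs (AF123 to AF127), against 7.89, 7.70, 7.91 and 8.08 in stimulated normal DCs (AF118 to AF121). The at-risk arrays spanned more than 2 log2 units and were all above the normal ones, which lay close together. Dmtn differed by 1.52 ± 0.36 (adjusted p = 0.0436).

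Ermap had 12.30, 10.99, 11.80, 10.89 and 11.04 in stimulated at-risk DCs of Set 2, against 9.95, 9.97, 10.02 and 10.18 in stimulated normal DCs. It differed by 1.37 ± 0.27 (adjusted p = 0.0181). Ank1 by its brightest probe set had 10.23, 8.38, 8.99, 8.44 and 8.64 in at-risk DCs, against 7.40, 7.54, 7.58 and 7.73 in normal DCs, and differed by 1.37 ± 0.33 (adjusted p = 0.0443). These 3 probe sets were the ones called in Set 2, and in each the groups did not overlap.

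Sptb had the largest difference of the members in Set 2 and was not called. Its signal was 9.96, 7.59, 8.80, 8.03 and 8.11 in at-risk DCs, against 6.96, 6.69, 6.97 and 7.01 in normal DCs, for 1.59 ± 0.40 (adjusted p = 0.0507). Rhag had 9.66, 7.37, 8.85, 8.35 and 8.00 in at-risk DCs, against 7.12, 7.20, 7.31 and 7.24 in normal DCs. Array AF124, the lowest of the at-risk arrays, was just above the highest normal array, and the difference was 1.23 ± 0.37 (adjusted p = 0.098). Slc4a1 had 13.18, 12.15, 12.95, 12.41 and 12.37 in at-risk DCs, against 11.94, 11.93, 11.84 and 11.77 in normal DCs, for 0.74 ± 0.19 (adjusted p = 0.0551). Epb42 by its brighter probe set had 7.42, 6.60, 7.89, 6.58 and 6.74 in at-risk DCs, against 6.63, 6.46, 6.08 and 6.22 in normal DCs, and overlapped (0.70 ± 0.27, adjusted p = 0.171). Thus 3 of the 12 were called higher, beside 2.58% of all probe sets, and 9 of 12 did not overlap, beside 5.67%. The median log2 fold change of the 12 was 1.17, and 1 was below 0, that of the dim probe set of Slc4a1 (-0.07).

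Averaged over the 7 genes, AF123 had a mean log2 signal of 10.50 and AF125 of 9.84, and the other 3 at-risk arrays of Set 2 lay between 8.81 and 9.13, against 8.21 to 8.32 in the 4 normal arrays. The at-risk arrays of Set 1 had 9.16 to 9.69, against 8.76 to 9.18 in stimulated normal arrays, where AF84 overlapped the lowest at-risk array. Without AF123 there were 5 calls in Set 2, with log2 fold changes of 1.18 for Dmtn, 1.15 for Ermap, 1.05 for Ank1 by its brightest probe set and 1.22 for Sptb, which was then called (adjusted p = 0.0128). Without AF124 there were 9 calls. The count was 0 without AF118, AF119 or AF120 and 1 without AF121, AF125, AF126 or AF127. The difference between the maternal effects of Set 2 and Set 1 called 0 of the 12 in limma (4 at an unadjusted p under 0.05), beside 1.79% of all probe sets called in either direction. Its lowest adjusted p was that of Ermap, 0.84 ± 0.33 (0.224, and 0.61 without AF123), and Epb42 by its brighter probe set had 0.01 with an interval of -0.71 to 0.74.

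**Figure D3:**
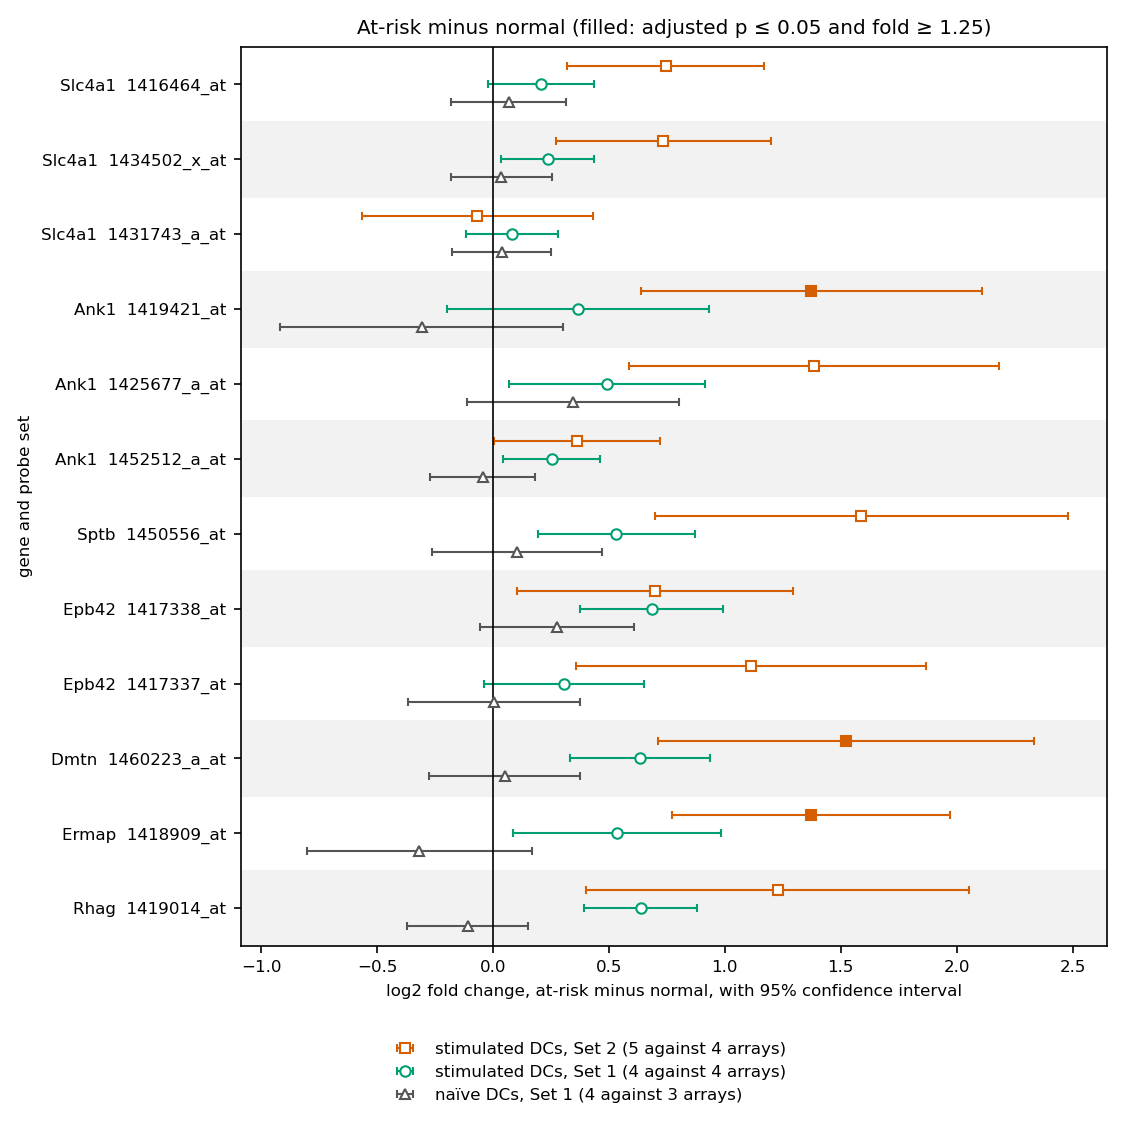
Log2 fold change of at-risk over normal pups with 95% confidence intervals for the 12 probe sets (rows), in stimulated DCs of Set 2 (squares) and Set 1 (circles) and in naïve DCs (triangles), filled where called. In Set 2 the intervals of Dmtn, Ermap and 1 probe set of Ank1 are filled, and every naïve interval crosses 0.

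**Figure D4:**
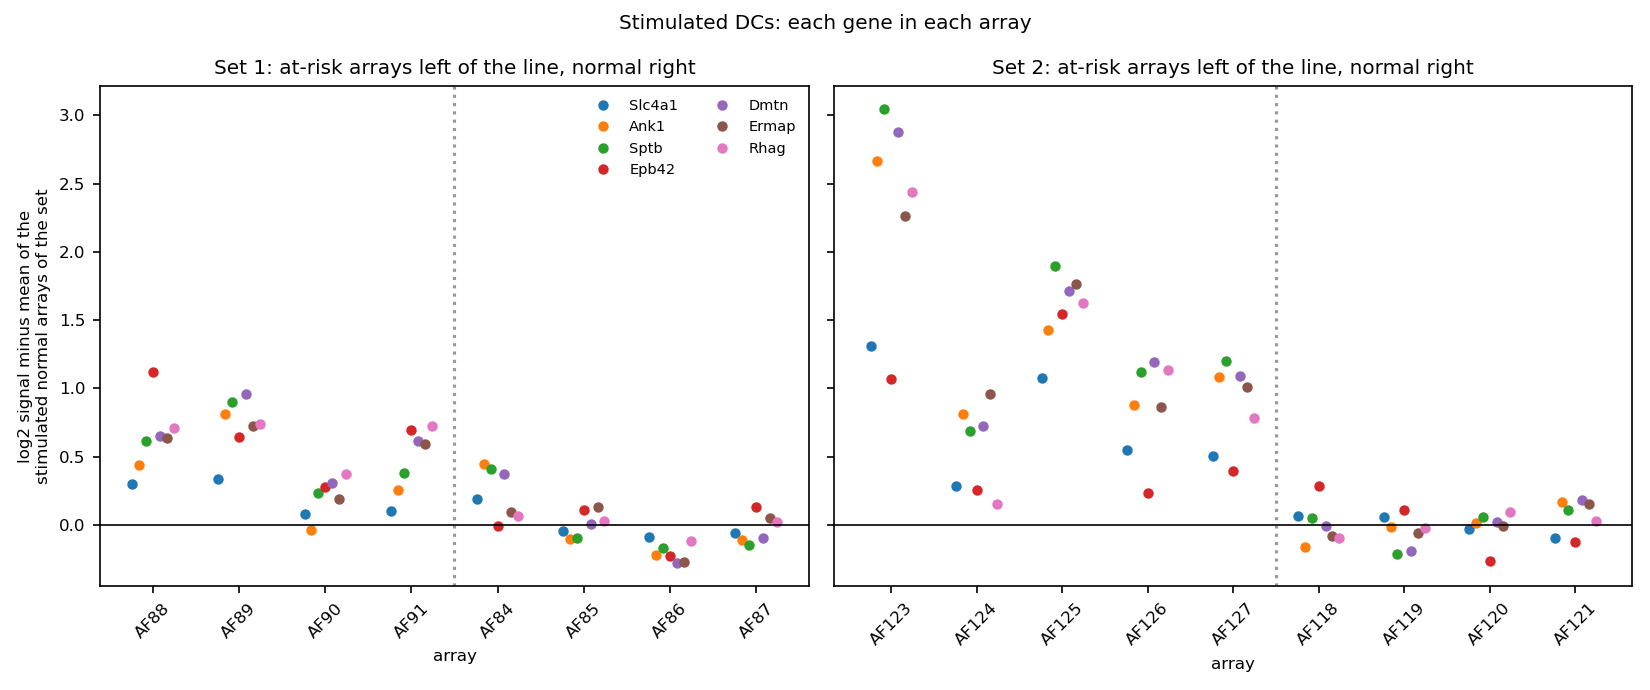
Log2 signal of each of the 7 genes on each stimulated array, minus the mean of the stimulated normal arrays of the same set, for Set 1 (left) and Set 2 (right). In Set 2 the points of AF123 and AF125 are the highest for every gene, and the at-risk arrays of Set 2 lie above 0 for every gene.

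The 7 genes moved together across arrays. The Pearson r of each gene with the mean of the other 6 was 0.90 to 0.99 over the 15 arrays of Set 1 and 0.83 to 0.99 over the 9 arrays of Set 2, lowest for Epb42 in both. Groups were pooled here and arrays of a set share preprocessing, so these are descriptions of the pattern. Among all other genes, Ces2g (r of 0.994 in Set 1 and 0.990 in Set 2), Cldn13 (0.987 and 0.996), Tom1l1 (0.989 and 0.992), Icam4 (0.988 and 0.992) and Slc6a9 (0.988 and 0.992) were most like the mean of the members. Ces2g encodes a carboxylesterase, Cldn13 a claudin, Icam4 the Landsteiner-Wiener blood group glycoprotein in humans and Slc6a9 a glycine transporter.

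Some other genes of the red cell membrane were called together with the members. Of 31 listed, 28 had a probe set. In stimulated DCs over both sets 7 of 28 were called higher in at-risk pups and 0 lower, where 1.75% of all 12393 genes were called higher and 0.492% lower. The median log2 fold change of the 28 was 0.12, beside 0.00 over all genes. Icam4 had 8.74 ± 0.82 in at-risk DCs and 7.06 ± 0.12 in normal DCs of Set 2 (log2 signal, SD, n = 5 and 4), and over both sets it differed by 1.20 ± 0.25 (SE, adjusted p = 0.0194). Aqp1, the water channel, differed by 1.00 ± 0.20 (0.0164), Rhd, the other subunit of the Rh complex, by 0.94 ± 0.20 (0.0214) and Kel, the Kell blood group endopeptidase, by 1.08 ± 0.23 (0.0227). In Set 2 alone 7 were higher (3.28% of all genes), Slc14a1, the urea transporter, having the lowest adjusted p (0.45 ± 0.07, 0.00692), and 1 was lower (2.34% of all genes), Cd44 (-0.41 ± 0.10, adjusted p = 0.0415). In Set 1 and in naïve DCs 0 were called by limma (8 and 9 at an unadjusted p under 0.05). Stimulated against naïve DCs gave 11 higher in at-risk pups and 8 in normal pups, and 0 lower. Of all genes, 4.98% were higher and 3.4% lower with allergen in at-risk pups, and 5.45% were higher and 6.33% lower in normal pups.

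Relatives of the members that serve mostly outside red cells were read as well. Of 26 listed relatives of ankyrin, spectrin, band 3, dematin and the other members, 23 had a probe set, and 0 were called in stimulated at-risk against stimulated normal DCs over both sets by limma (4 at an unadjusted p under 0.05), with a median of 0.01. In Set 2 alone Tgm1, a transglutaminase, was lower (-0.47 ± 0.09, adjusted p = 0.0131). With allergen, 2 were higher (Ank3 and Epb41l4b) and 3 lower (Epb41l3, Tgm1 and Ablim1) in at-risk pups, and 0 were higher and 4 lower (Epb41l3, Slc4a8, Tgm2 and Ablim1) in normal pups. Over all genes the shares with allergen were 4.98% higher and 3.4% lower in at-risk and 5.45% higher and 6.33% lower in normal pups. Epb41l3 had -0.51 ± 0.11 in at-risk and -0.83 ± 0.12 in normal pups. These relatives were named after their values were seen, and 1 gene, Add3, is on this list and the one before.

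Many markers on a further erythroid list, of globin, heme, transcription factor and some surface protein genes, moved with the members. Of 34 listed, 29 had a probe set, and 13 were called higher and 0 lower in stimulated at-risk against stimulated normal DCs over both sets (1.75% of all genes higher). The transcription factors Klf1 (1.21 ± 0.27, adjusted p = 0.0268), Gata1 (1.02 ± 0.23, 0.0268) and Tal1 (1.21 ± 0.27, 0.0261) were among them, as were Car1, a carbonic anhydrase (1.19 ± 0.24, 0.0194), and Alas2, the erythroid enzyme of the first step of heme synthesis (0.77 ± 0.18, 0.0311). Gata1 had 9.34 ± 0.27 in stimulated at-risk and 8.93 ± 0.09 in stimulated normal DCs of Set 1 (log2 signal, SD, n = 4 each), where the naïve groups had 6.68 ± 0.21 at-risk and 7.07 ± 0.59 normal (n = 4 and 3). With allergen 21 markers were higher in at-risk pups and 20 in normal pups, and 9 were higher in Set 2 alone, beside 4.98%, 5.45% and 3.28% of all genes. In naïve DCs and in Set 1 alone 0 were called by limma (0 and 15 at an unadjusted p under 0.05). Hba-a1, an alpha globin, was read by a dim probe set with group means from 4.19 to 4.45, below the lower quartile of every array, and was not called.

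**Figure D5:**
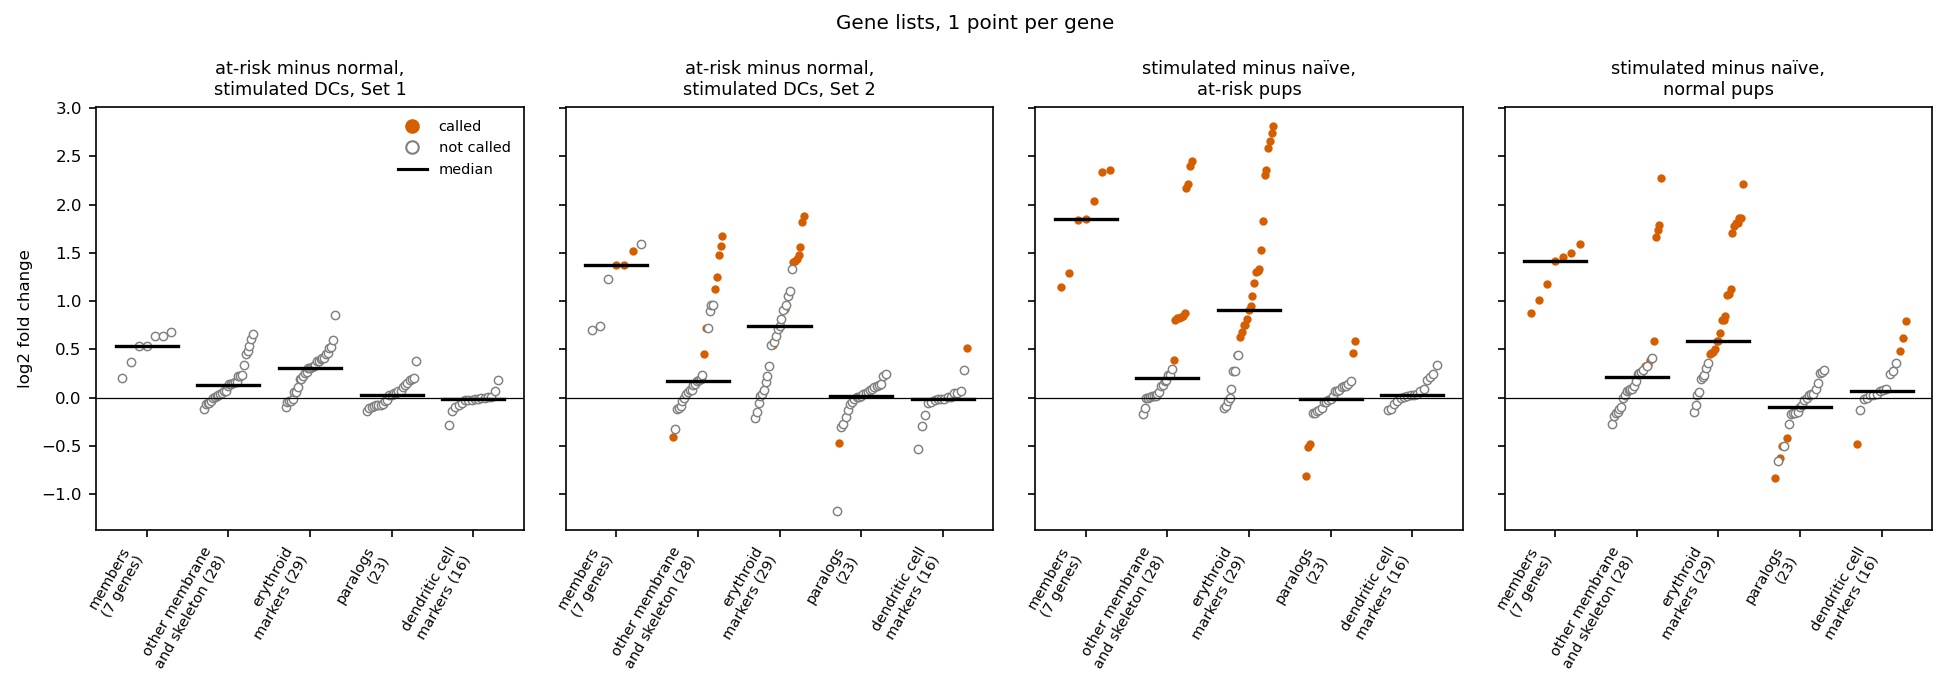
Log2 fold changes of single genes (points, filled where called) with the median of each list (line), for the members, the other red cell membrane genes, the erythroid markers, the relatives and the DC markers, in 4 comparisons. The medians of the members and of the erythroid markers lie above 0 in each panel, while those of the relatives and DC markers run from -0.09 to 0.07.

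Markers of some other cells moved along with these genes. Unless stated otherwise, counts here are of markers called, and they stand beside the shares of all genes called. These shares were 4.98% higher and 3.4% lower with allergen in at-risk pups, 5.45% and 6.33% in normal pups, 1.75% and 0.492% in at-risk DCs over both sets, 0.105% and 0% in Set 1, and 3.28% and 2.34% in Set 2. Of 14 platelet and megakaryocyte markers, 13 were called higher with allergen in at-risk pups and 12 in normal pups, with medians of 3.43 and 2.94. All 14 were above 0 in both, and 9 were called higher in stimulated at-risk than in stimulated normal DCs over both sets. All 14 also had a larger maternal effect in Set 2 than in Set 1, and 7 were called, beside 0.831% of all genes called higher. Their mean log2 signal was 9.39 to 10.19 in stimulated at-risk arrays, 9.27 to 9.68 in stimulated normal arrays, 6.54 to 6.78 in naïve at-risk arrays and 6.56 to 6.70 in naïve normal arrays of Set 1, and 8.18 to 9.36 in at-risk and 6.96 to 7.12 in normal arrays of Set 2. Of 15 endothelial markers, 7 were higher in at-risk DCs over both sets, and their mean was 7.35 to 7.84 in at-risk and 6.76 to 6.90 in normal arrays of Set 2 (7.11 to 8.03 and 6.99 to 7.26 in stimulated arrays of Set 1). With allergen 7 endothelial markers were higher and 1 lower in at-risk pups, and 1 was higher and 2 lower in normal pups. In Set 1 limma called 0 endothelial and 0 platelet markers (8 and 1 at an unadjusted p under 0.05). In Set 2 it called 8 and 12 higher. T cell markers went the other way. All 9 measured had negative log2 fold changes with allergen in both kinds of pup, and 6 were called lower in at-risk pups and 8 in normal pups. In at-risk DCs of Set 2, 6 were called lower. Their mean in that set was 8.97 to 9.38 in at-risk and 9.75 to 9.77 in normal arrays. In naïve DCs limma called 0 of these T cell markers (3 at an unadjusted p under 0.05), beside 0.29% of all genes lower. Their median there was -0.34 and 1 was above 0. Their means were 10.12 to 10.18 in naïve at-risk and 10.48 to 10.51 in naïve normal arrays. AF85 had 10.22, where the median of the stimulated normal arrays of Set 1 was 9.37. All 14 red pulp macrophage markers had negative log2 fold changes with allergen, with medians of -0.33 in at-risk and -0.49 in normal pups. Of these, 5 were called lower in at-risk and 9 in normal pups. All 14 were also below 0 in at-risk DCs of Set 2, and 4 were called (means of 11.30 to 11.70 in at-risk and 11.89 to 11.99 in normal arrays). In Set 1 the maternal difference was above 0 for 13 of the 14 (median 0.13), and 0 were called. All 14 had a lower maternal effect in Set 2 than in Set 1, and 6 were called, beside 1.32% of all genes called lower. Of 8 B cell markers 1 was higher in at-risk DCs over both sets and 2 in Set 2. Of 10 neutrophil markers 2 were higher over both sets. In Set 1 all 10 had an unadjusted p under 0.05 and a positive log2 fold change (median 0.82, against 0.54 for the 7 members), and 1 was called, and in Set 2 1 was lower. With allergen 3 neutrophil markers were higher in at-risk pups, and 1 was higher and 6 lower in normal pups. Their mean was 10.72 to 11.26 in stimulated at-risk, 10.17 to 10.43 in stimulated normal, 10.42 to 10.89 in naïve at-risk and 10.51 to 10.88 in naïve normal arrays of Set 1, and 10.10 to 11.32 in at-risk and 10.23 to 10.31 in normal arrays of Set 2, where AF123 was the highest. Of the 16 DC markers 0 were called over both sets by limma (2 at an unadjusted p under 0.05), 1 was higher in Set 2, and with allergen 3 were higher and 1 lower in normal pups and 0 were called in at-risk pups (3 at an unadjusted p under 0.05). The part of these other cells in the erythroid signals was not tested.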

How the data were processed

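Splenic CD11c-positive DCs were measured on 24 arrays in 6 groups. The authors deposited 1 linear intensity for each probe set, summarised by RMA (the sources used here give no version). The methods name a RefSeq-based probe set definition, but the table held Affymetrix's own probe sets. The design assumed log2 values, so log2 was taken, with no pseudocount. No column belonged to another sample (0 columns). The set of an array was read from its number and the set sizes in the methods, which state that 1 array per set was dropped.

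Linear models of limma (version 3.58.1, under R version 4.3.3, with lmFit then eBayes) covered 22626 probe sets, after 64 controls were left out, and were tested on simulated data. The naïve, allergen, Set 1 and interaction contrasts used the 15 arrays of Set 1, the stimulated comparison 17 arrays with set as a term, and Set 2 its 9 arrays. Symbols came from the platform annotation (20380 probe sets with 1 symbol, 691 with several and 1555 with none), and a listed gene was read by its probe set with the highest mean. Within groups, the median SD over probe sets ran from 0.10 to 0.15 (log2). Of the lists of other membrane genes and erythroid markers, up to 4 called genes per comparison and direction with the smallest adjusted p were named, besides Alas2, Hba-a1, Hbb-b1, Gata1 and Klf1. Hbb-b1 had no probe set of its own symbol. Some listed genes are not reported here. Promoters were searched in Python 3.11.15 with pandas 2.3.3, and figures were drawn with matplotlib 3.10.9 and numpy 2.4.6. Members and lists were chosen with earlier results of these data known.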

Additional observations from a re-analysis of the deposited data

Results flagged for a closer look

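Single arrays lay far from the others of their group in 6 of the 60 groups of 4 or 5 values tested by Dixon's criterion, where chance gives about 1 in 20 for a single test. The 60 were not independent, because the 12 probe sets were read on the same arrays and the 7 genes moved together. The naïve normal group, which holds AF79, had 3 arrays and was not tested. Slc4a1 by its brightest probe set was 12.72 on AF84 against 12.44 to 12.49 on the other stimulated normal arrays of Set 1. Sptb was 8.10 on the same array against 7.53 to 7.60. In Set 2, Sptb was 6.69 on AF119 against 6.96 to 7.01 on the other stimulated normal arrays. Rhag was 8.52 on AF90 against 8.85 to 8.88 on the other stimulated at-risk arrays of Set 1. The remaining flags were of dim probe sets. Slc4a1 by its dimmest was 6.49 on AF125 against 5.33 to 5.55 on the other stimulated at-risk arrays of Set 2, and Ank1 by its dimmest was 5.01 on AF83 against 5.12 to 5.13 on the other naïve at-risk arrays. AF123, the highest array for most of the genes, was not among them.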

How the results depend on the processing

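Over single probe sets and alternatives, 2138 of 2282 values kept their direction and their side of the threshold, 83 lost the call, 61 gained it and 0 called values reversed, while 47 values that were not called changed sign. Counts of the 12 probe sets called in stimulated at-risk against stimulated normal DCs moved most. Over both sets (6) a fit to all 24 arrays called 10, and the count was 2 without a term for set, 0 with the 25% difference tested itself, 10 with array weights and from 1 to 9 with an array left out. In Set 1 (0) it was 1 with only the groups compared, 1 with dim probe sets left out, 1 with a trended and robust prior, 2 with array weights, 1 of 7 with 1 probe set per gene and from 0 to 3 with an array left out. In Set 2 (3) it was 10 with all 24 arrays, 0 with that difference tested, 6 with a trended and robust prior, 9 with array weights, 5 of 7 with 1 probe set per gene and from 0 to 9 with an array left out. With allergen in at-risk pups (11) it was 7 of 7 with 1 probe set per gene, where fewer probe sets were counted. Causes of the other changes were not tested. Counts of the naïve, allergen, interaction and set-difference comparisons were otherwise within 1.5 times their values under quantile normalization, median centring and the rest. No paired analysis was possible because the labels give no replicate numbers.

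Signal over background was not given, and the number of arrays limits the precision. Set, amplification and preprocessing cannot be told apart. Pups per array are unknown, and in these small groups a call near the threshold can be lost or gained when an array is left out.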
